A study of Canis lupus familiaris with 8 samples.

Results

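The miR-17 seed family was examined in serum samples of Doberman Pinschers, some affected by dilated cardiomyopathy (DCM) and some healthy. Its members were found by name on a custom miRNA array with canine (cfa) and murine (mmu) probes: every listing called miR-17, miR-20a, miR-20b, miR-93, miR-106a or miR-106b after the species prefix was taken, without star names, the label of the strand of a precursor that is usually less abundant. This rule found 7 of the 1224 listings, 6 canine ones and the murine mmu-miR-20b. All 7 were among the 438 listings detected in serum, although cfa-miR-17 and cfa-miR-20b were dim.

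The question was whether serum miRNAs differ between 4 dogs with DCM (arrays DoCM5 to DoCM8) and 4 healthy controls (arrays Con1 to Con4). All were client-owned adult dogs of the same breed, aged 7 to 11 years per the labels. A younger dog, named DoCM8, is listed in the methods. The DCM dogs were in the occult stage, that is without clinical signs noted by the owner but with ventricular arrhythmia and enlarged ventricles. All of them were treated with pimobendan, an ACE inhibitor and an antiarrhythmic drug, sotalol or amiodarone, when serum was taken. Disease and treatment therefore cannot be told apart. For the dog named DoCM8, the paper remarks that the owner did not give the drugs regularly.

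MicroRNAs of one family share a seed, the short stretch near the start of the mature miRNA that pairs with target mRNAs. In mammals, the miR-17 family is made from 3 paralogous clusters. The miR-17 cluster, hosted by MIR17HG, also codes for the miR-18, miR-19 and miR-92 families, the miR-106a cluster lies on the X chromosome and ends with miR-363, and the miR-106b cluster with miR-93 and miR-25 lies in an intron of MCM7, a replication licensing gene. The family is known for promoting proliferation by repressing cell cycle inhibitors such as CDKN1A, and the miR-17 cluster is required for normal heart and lung development in the mouse. In the RefSeq annotation of the dog the members lay as in other mammals. MIR17 and MIR20A were on one run of 6 neighbouring miRNA genes, MIR20B and MIR106A on a second run of 6, and MIR106B and MIR93 next to MIR25 within MCM7.

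Each of the 8 arrays held RNA of 1 dog, and all arrays lay on 1 slide. Between 10817 and 14000 of 48960 features were well above background per array, and no feature was saturated. In the study, the array of a dog named DoCM8 was left out. The paper describes for it a much lower correlation with the other samples and intensified miRNA signals. The array labels may not match the names of the dogs there. In the deposited files, the array labelled DoCM5 stood apart: its median correlation with the other arrays was 0.924, against 0.957 to 0.968 for the others, of which DoCM8 had the highest value, and its median signal before normalization was the highest, 5.09 on the log2 scale against 3.68 to 4.85. Results are therefore given for the 7 arrays without DoCM8, for all 8 arrays, and for the 7 arrays without DoCM5. The comparison without DoCM8 keeps DoCM5, the array with the lowest correlation and the highest median signal here. All DCM arrays were in the first row of the slide and all controls in the second, and the row cannot be told apart from the group, while each of the 4 columns held 1 array of each group. In serum, more cells releasing a miRNA and more of it per cell cannot be told apart.

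Values are given on a generalised log2 (glog2) scale after variance stabilising normalization (vsn), on which a difference of 1 is a doubling for bright signals and less than that for dim ones. Probes differ in brightness, so that levels of different listings are not compared. Each listing had 40 features. For cfa-miR-20a, cfa-miR-93, cfa-miR-106a, cfa-miR-106b and mmu-miR-20b all 40 were kept and were well above background on all 8 arrays. For cfa-miR-17 and cfa-miR-20b, only the 20 features of 1 probe were kept, and all 20 of the other probe were not. Before normalization cfa-miR-17 had a signal of 4.55 to 45.0 and cfa-miR-20b of 7.23 to 57.0, in contrast to 438 to 4560 for cfa-miR-20a. On array Con2, only 3 of the 20 kept features of cfa-miR-17 were well above background, so that it was measured above background on 7 of 8 arrays.

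Of the miR-17 cluster, cfa-miR-17 gives the family its name. It measured 4.31 on DoCM5, 3.32 on DoCM6, 3.28 on DoCM7 and 4.17 on DoCM8, and 3.58 on Con1, 2.08 on Con2, 3.36 on Con3 and 2.73 on Con4. DoCM5 and DoCM8 were above every control, the other DCM arrays were within the range of the controls, and the groups overlapped. Without DoCM8, DCM arrays averaged 3.63 ± 0.58 (SD, n = 3) and controls 2.94 ± 0.68 (SD, n = 4). The difference was 0.70 on the glog2 scale (SE 0.44, 95% interval −0.26 to 1.65, exact two-sided permutation p = 0.286). The limma p adjusted over all listings was 0.9996 for each of the 7 in this comparison, and the adjusted p is given below only where other arrays were used. With all 8 arrays the difference of cfa-miR-17 was 0.83 (SE 0.39, adjusted p = 0.961), with an unadjusted limma p of 0.0553 and an exact permutation p = 0.171. Without DoCM5 it was 0.65 (adjusted p = 0.797). The value rested on DoCM5 or DoCM8 and on Con2, where the listing was below background. It was 0.36 without both DoCM8 and DoCM5, and 0.41 without DoCM8 and Con2. After normexp on the median signal with quantile normalization it was 0.12. That setting adds an offset of 50, above the signal of this listing (4.55 to 45.0). Its difference is thereby shrunk, and no conclusion is drawn from the 0.12.

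The second member of this cluster, cfa-miR-20a, was measured brightly on every array. It was at 10.82, 10.00, 9.93 and 10.08 on DoCM5 to DoCM8, and at 10.01, 9.21, 10.12 and 9.82 on Con1 to Con4. DoCM5 was high and Con2 low, while the 6 remaining arrays lay between 9.82 and 10.12 with both groups mixed. DCM arrays averaged 10.25 ± 0.49 (SD, n = 3) and controls 9.79 ± 0.41 (SD, n = 4), a difference of 0.46 (SE 0.37, exact permutation p = 0.343). Without DoCM5 the difference was 0.22 (adjusted p = 0.840).

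Of the miR-106a cluster, cfa-miR-106a was at 9.36, 8.34, 8.28 and 8.37 on DoCM5 to DoCM8, and at 8.49, 7.86, 8.63 and 8.36 on Con1 to Con4. DoCM5 was above and Con2 below all other arrays, and the remaining DCM arrays lay within the range of the controls. The difference between the means of 8.66 ± 0.61 (SD, n = 3) and 8.33 ± 0.34 (SD, n = 4) was 0.33 (SE 0.38, exact permutation p = 0.543). Without DoCM5 in place of DoCM8 it was −0.0052 (SE 0.24, adjusted p = 0.989), so that the sign turned.

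The other member of the cluster, miR-20b, differs from the rest of the family in that it was listed in both species. The dim cfa-miR-20b was at 4.62, 3.45, 3.22 and 3.49 on DoCM5 to DoCM8, and at 3.75, 3.03, 3.86 and 4.11 on Con1 to Con4. DoCM5 was the highest array here as well, but the other DCM arrays were below 3 of the 4 controls. The difference was 0.07 without DoCM8 (SE 0.42, exact permutation p = 0.886) and −0.30 without DoCM5 (SE 0.28, adjusted p = 0.823). In comparison, the bright mmu-miR-20b was at 10.23, 9.40, 9.30 and 9.48 on DoCM5 to DoCM8, and at 9.37, 8.55, 9.50 and 9.12 on Con1 to Con4. The order of the arrays was that of a high DoCM5, a low Con2 and mixed groups between them. For mmu-miR-20b the difference was 0.51 without DoCM8 (SE 0.37, exact permutation p = 0.257) and 0.26 without DoCM5 (adjusted p = 0.840). The canine and the murine listing of miR-20b thus differed in sign without DoCM5. Whether both measured the same miRNA was not tested.

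Of the miR-106b cluster, cfa-miR-93 was at 10.34, 9.31, 9.24 and 9.32 on DoCM5 to DoCM8, and at 9.62, 9.02, 9.66 and 9.51 on Con1 to Con4. With the exception of DoCM5, every DCM array was lower than 3 of the 4 controls. The difference was 0.18 without DoCM8 (SE 0.37, exact permutation p = 0.686) and −0.16 without DoCM5 (SE 0.23, adjusted p = 0.841). Its neighbour cfa-miR-106b was at 9.36, 8.82, 8.65 and 9.08 on DoCM5 to DoCM8, and at 8.84, 8.19, 8.97 and 8.56 on Con1 to Con4. Here DoCM5 and DoCM8 were above all controls and the other DCM arrays were among them. The difference for cfa-miR-106b was 0.30 (SE 0.34, exact permutation p = 0.371) without DoCM8 and 0.21 (adjusted p = 0.840) without DoCM5. It was 0.09 without both DoCM8 and DoCM5, 0.15 without DoCM8 and Con2 and 0.05 after quantile normalization. With the median over features it was 0.76, outside the 0.29 and 0.26 of its single probes.

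**Figure D1:**
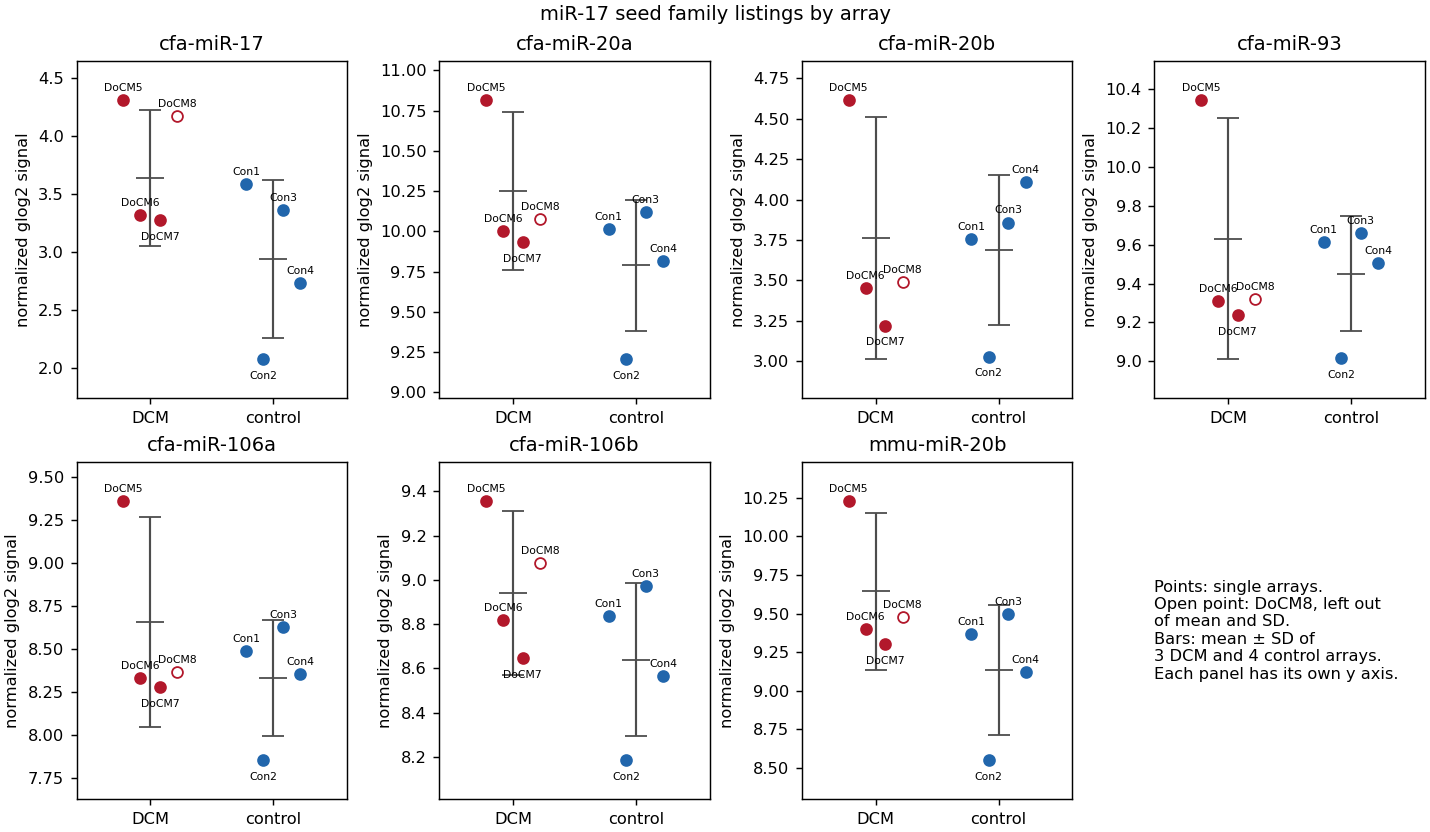
Normalized glog2 signal (y axis, a separate scale for each panel) of the 7 listings of the family on the 4 DCM and 4 control arrays (x axis). Points are single arrays, the open point is DoCM8, and bars are the mean ± SD of 3 DCM and 4 control arrays. DoCM5 is the highest and Con2 the lowest array in every panel.

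None of the 7 listings passed both limits, a limma p under 0.05 and a fold change over 1.5, without DoCM8, where 11 of all 438 detected listings (2.51%) did. None passed with all 8 arrays either (3.88% of all listings), nor without DoCM5 (5.25%). The adjusted p was over 0.05 for every detected listing in the 3 comparisons, and the unadjusted limma p of the 7 listings was 0.0553 or higher. Likewise, the groups overlapped for all 7 listings, whereas they did not overlap for 19 of 438 (4.34%) without DoCM8, for 2.74% with all arrays and for 7.76% without DoCM5.

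The mean of the DCM group was higher for 7 of 7 listings without DoCM8, in contrast to 222 of 438 (50.7%) of all listings. The median difference of the 6 canine listings was 0.31, and that of all detected listings was 0.0016 with an interquartile range of −0.27 to 0.28. With 8 arrays 7 of 7 were higher (50% of all) and the canine median was 0.29. Without DoCM5, 4 of 7 were higher (50.2% of all) and the canine median was 0.10. That all 7 listings had one direction therefore depended on DoCM5. It also depended on Con2: without DoCM8 and Con2, the difference of cfa-miR-20b was −0.15 and the canine median was 0.16. Small changes could not be resolved: the 95% interval of the 5 bright listings reached from between −0.63 and −0.31 to between 0.99 and 1.32.

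**Figure D2:**
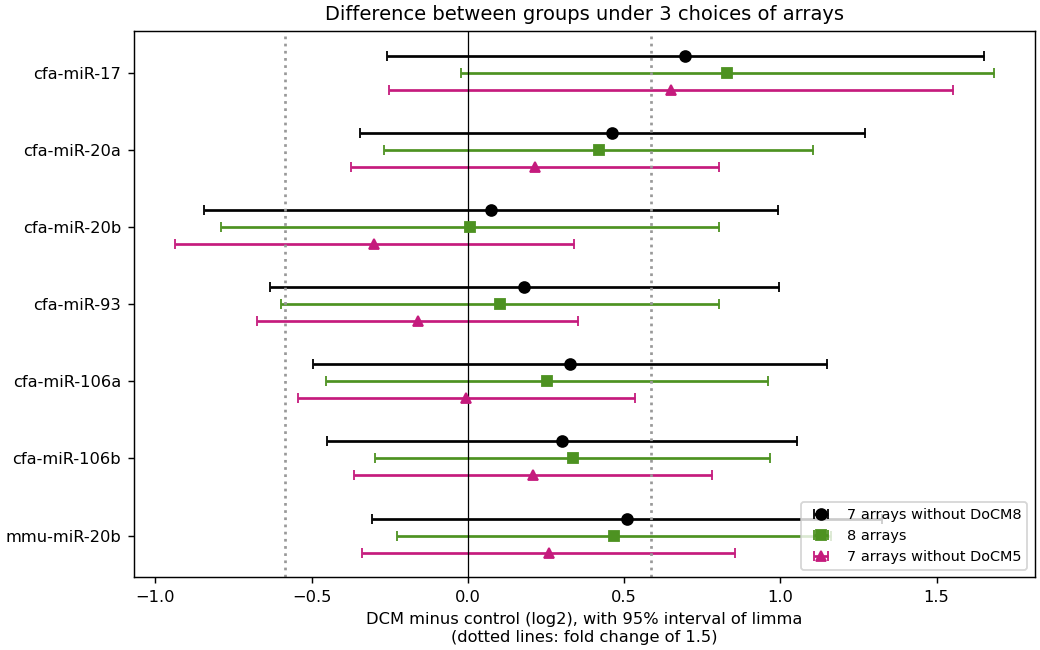
Difference between DCM and control on the log2 scale (x axis) for each listing of the family (y axis) without DoCM8 (circles), with all 8 arrays (squares) and without DoCM5 (triangles). Lines are 95% intervals of limma and dotted lines mark a fold change of 1.5. Every interval includes 0, and the values for cfa-miR-20b, cfa-miR-93 and cfa-miR-106a are on the negative side without DoCM5.

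Within the columns of the slide, each with 1 array of each group, DoCM7 was lower than Con3 for all 7 listings, with differences from −0.64 for cfa-miR-20b to −0.08 for cfa-miR-17. DoCM5 was higher than Con1 for all 7, by 0.52 to 0.87, and DoCM6 higher than Con2 by 0.29 to 0.85 for the 6 listings that were above background on Con2. In the fourth column, DoCM8 was higher than Con4 for 5 listings, with differences from 0.01 for cfa-miR-106a to 1.44 for cfa-miR-17, while cfa-miR-20b was at −0.62 and cfa-miR-93 at −0.18. With the column as a block none of the 7 listings passed both limits (limma p of 0.179 or higher, adjusted p = 0.993 for each), against 13 of all 438 detected listings. This fit left out DoCM8, so that Con4, alone in its column, did not contribute to the difference.

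The spread of the family over the dogs was dominated by 2 arrays. All 7 listings were highest on DoCM5 and lowest on Con2. Over all detected listings, 130 of 438 (29.7%) were highest on DoCM5, 86 (19.6%) were lowest on Con2, and 65 (14.8%) were both. Relative to its own mean over the 8 arrays, the median listing of the family was at 0.86 on DoCM5 and at −0.66 on Con2, and between −0.18 and 0.16 on the 6 other arrays. Of 270 listings that were well above background on all arrays with at least 50% of their features kept, the median was −0.37 on DoCM5 and 0.11 on Con2. The family therefore deviated in the opposite direction from the median listing on both arrays. On DoCM5 the distance to the next highest array was 0.73 for cfa-miR-106a and mmu-miR-20b, 0.70 for cfa-miR-20a and 0.68 for cfa-miR-93, but 0.28 for cfa-miR-106b and 0.14 for cfa-miR-17, for which DoCM8 came second. DoCM5 remained the highest array for 6 of 7 listings after scaling to the 75th percentile or after quantile normalization.

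**Figure D3:**
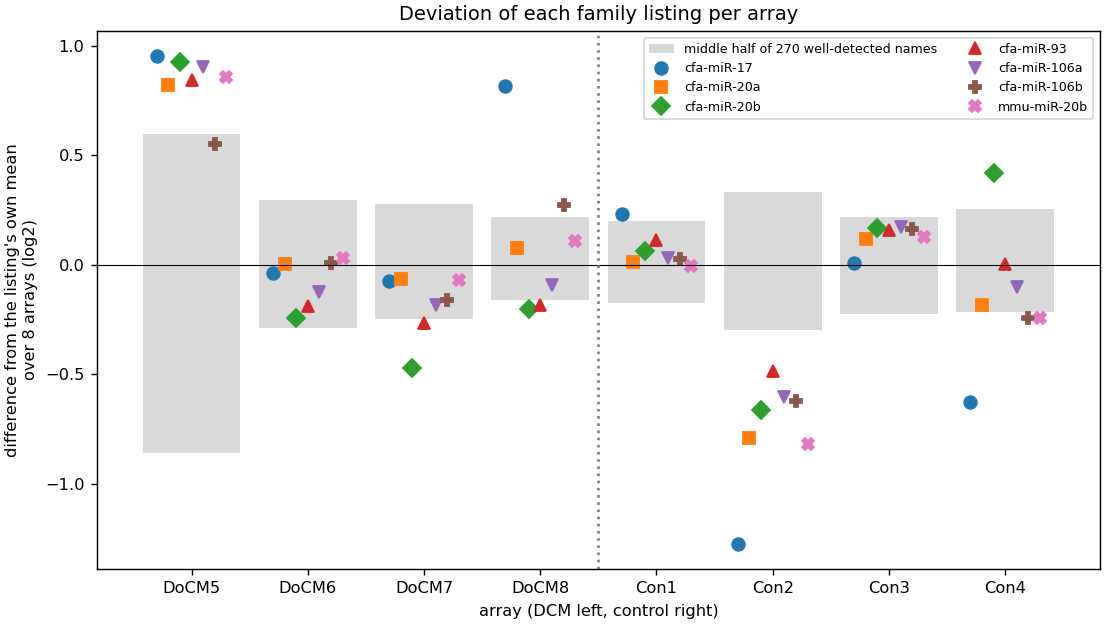
Deviation of each listing of the family from its own mean over 8 arrays, in log2 (y axis), by array (x axis, DCM left and control right of the dotted line). Grey boxes are the interquartile range of 270 well-detected listings on that array. On DoCM5 6 of the 7 listings lie above the box, and on Con2 all 7 lie below it.

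Markers of possible sources of serum miRNAs differed in part on DoCM5 and Con2. All 5 listings of the platelet and endothelium list (miR-126, miR-221 and miR-222) were detected, and their summed level was 10.41 on DoCM5, 8.85 to 9.46 on the other DCM arrays and 9.23 to 9.44 on the controls, with 9.39 on Con2. Of these, mmu-miR-126-3p, abundant in platelets and endothelium, was at 9.55 on DoCM5 and at most 8.62 elsewhere, and cfa-miR-126 was at 6.22 on DoCM5 and at most 5.90 elsewhere. Only cfa-miR-222 of this list was not highest on DoCM5. All 4 listings of the erythrocyte list (miR-451, miR-144 and miR-16) were detected, with a summed level of 16.58 on DoCM5, the lowest array, and of 16.77 to 17.17 elsewhere. The sum was set by the very bright cfa-miR-451, which is abundant in red cells, at 16.36 on DoCM5 and 16.63 to 17.06 on the other arrays. The other listings of the list were higher on DoCM5 than the median of the other arrays, by 0.63 for cfa-miR-144, 0.50 for mmu-miR-144 and 0.47 for cfa-miR-16, and lower on Con2, with differences of −1.08, −1.22 and −0.60. The leukocyte list was detected with 7 of 7 listings and ranged from 12.10 to 13.18 in DCM and from 12.69 to 13.15 in controls. Within it, mmu-miR-142-3p was at 8.20 on DoCM5, 7.21 to 7.88 on the other DCM arrays and 5.89 to 6.89 on the controls. On Con2, cfa-miR-150, cfa-miR-155 and mmu-miR-155 were above the median of the other arrays by 1.23, 0.77 and 0.55, while mmu-miR-142-3p and mmu-miR-142-5p differed from it by −1.001 and −0.416 and the listings of miR-223 by 0.03 and 0.07. The part of these cells in the values of the family was not tested.

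The heart and muscle list had 4 of 7 listings detected, with cfa-miR-133a, cfa-miR-208a and cfa-miR-208b not detected, and its summed level was highest on Con2 at 8.48, against 6.69 to 7.30 elsewhere. This sum was led by cfa-miR-133b, a muscle miRNA, at 8.15 on Con2. In contrast, the cardiac cfa-miR-499 was highest on DoCM5 at 6.16 and lowest on Con2 at 4.46, and mmu-miR-208a-5p was lowest on DoCM5 at 3.39 and at 4.84 on Con2. The liver list (3 of 3 detected) ranged from 8.54 to 9.04 in DCM and from 8.56 to 9.50 in controls. The listings of miR-223 and miR-23a were within or close to the range of the other arrays on DoCM5. For miR-223, a myeloid miRNA, cfa-miR-223 was at 10.85 on DoCM5 and 10.66 to 11.89 elsewhere, and mmu-miR-223 at 11.22 on DoCM5 and 11.02 to 12.30 elsewhere. As the reference of haemolysis ratios, cfa-miR-23a was at 11.50 on DoCM5 and 11.07 to 11.48 elsewhere, and mmu-miR-23a at 10.89 on DoCM5 and 10.44 to 10.90 elsewhere.

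Next, it was asked how closely the members followed each other over the dogs. The difference between a pair of listings was formed within each array, and its SD over the 8 arrays was taken as the measure of likeness: a small SD means that both moved together. For the 6 listings of the family that were well above background on all arrays with at least 50% of features kept, the 15 pairs had SDs from 0.034 to 0.371 with a median of 0.202. The 36315 pairs of the 270 well-detected listings had a median SD of 0.684. These pairs share arrays and members and are given as a description.

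The closest pair was mmu-miR-20b and cfa-miR-20a, which are made from different clusters. Their difference was −0.59, −0.60, −0.63 and −0.60 on DoCM5 to DoCM8, and −0.65, −0.65, −0.62 and −0.69 on Con1 to Con4, with an SD of 0.034. This was within the SDs of 0.024 to 0.110 found between probes of the same listing of the family (median 0.069, 7 probe pairs), and only 3 of the 36315 pairs had a smaller SD. After quantile normalization the SD of this pair was 0.215 and 751 pairs were smaller. Whether the probes of one member also bound other members was not tested. Likeness of listings therefore need not be likeness of separate miRNAs. On the other hand, the difference between cfa-miR-20b and mmu-miR-20b, listed under the same name for both species, ranged from −6.08 to −5.01 and had an SD of 0.340. The absolute size of these differences reflects different probes and has no meaning for abundance. Over the 35 names detected in both species, the SD between both listings was 0.013 to 1.12 with a median of 0.208, and 11 names had a larger SD than miR-20b.

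Listings of members of different clusters were in part closer to each other than those of the same cluster, with the same limit on their probes. The SD between cfa-miR-106a and cfa-miR-93, from different clusters, was 0.090, and that between cfa-miR-20a and cfa-miR-106a was 0.125. Within a cluster, it was 0.145 between cfa-miR-106a and mmu-miR-20b, 0.247 between cfa-miR-93 and cfa-miR-106b, 0.235 between cfa-miR-20b and cfa-miR-106a and 0.388 between cfa-miR-17 and cfa-miR-20a. The last of these values includes the dim cfa-miR-17, which was the farthest from every other member. The difference between cfa-miR-93 and cfa-miR-106b was 0.99 on DoCM5, 0.50 on DoCM6, 0.59 on DoCM7, 0.24 on DoCM8 and 0.69 to 0.94 on the controls, and its SD was 0.235 without DoCM5. DoCM8 was thus the lowest array, and DoCM5 was close to the highest control.

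**Figure D4:**
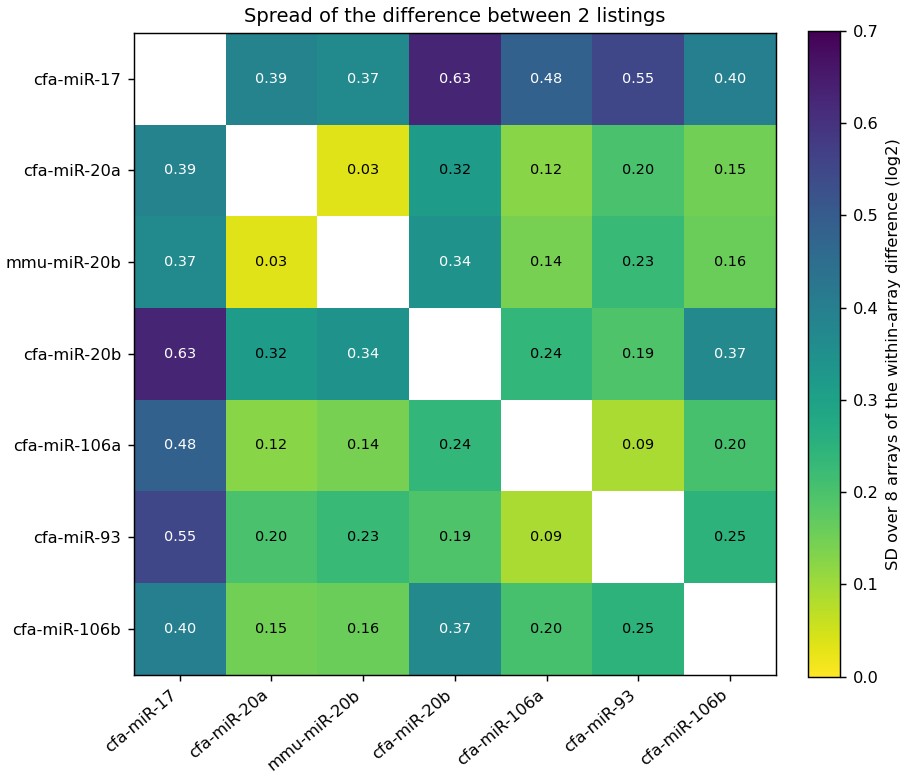
SD over 8 arrays of the within-array difference (log2, colour and number in each cell) for each pair of listings of the family (both axes). The cell of mmu-miR-20b and cfa-miR-20a has the lowest value, 0.034, and that of cfa-miR-17 and cfa-miR-20b the highest, 0.63.

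In some pairs the within-array difference separated the groups although the single listings overlapped. Of the 15 pairs, 3 did not overlap between 4 DCM and 4 control arrays, against 3.15% of the 36315 pairs, and all 3 include cfa-miR-93. Without DoCM8 it was 4 of 15 pairs (4.61% of all pairs) and without DoCM5 11 of 15 (8.1%). The difference between cfa-miR-106a and cfa-miR-93 was −0.98, −0.98, −0.96 and −0.95 on DoCM5 to DoCM8, and −1.13, −1.16, −1.03 and −1.15 on Con1 to Con4. All DCM arrays were above all controls, with means of −0.97 ± 0.015 (SD, n = 4) and −1.12 ± 0.060 (SD, n = 4), a difference of 0.15. In the 6 combinations of single probes of both listings, the difference between groups ranged from −0.03 to 0.25, and the groups did not overlap in 5. The difference between cfa-miR-20a and cfa-miR-93 was 0.47 to 0.76 in DCM and 0.19 to 0.46 in controls, and that between mmu-miR-20b and cfa-miR-93 was −0.12 to 0.16 in DCM and −0.47 to −0.16 in controls. For the former the groups did not overlap in 2 of 4 combinations of single probes, and for the latter in 4 of 4. Because the pairs share cfa-miR-93 and were picked from 15 after their values were seen, no test is given. The pairs also depended on the processing. After scaling to the 75th percentile 6 of 15 did not overlap (3.06% of all pairs), and after quantile normalization 1 (2.69%). After normexp with quantile normalization it was 2 (3.47%), and with the median in place of the mean over features none of the 15 (2.91%). The median over features is not a reliable summary for cfa-miR-93. Without DoCM8 it gave a difference between groups of −0.27, against 0.10 and 0.25 for the single probes.

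**Figure D5:**
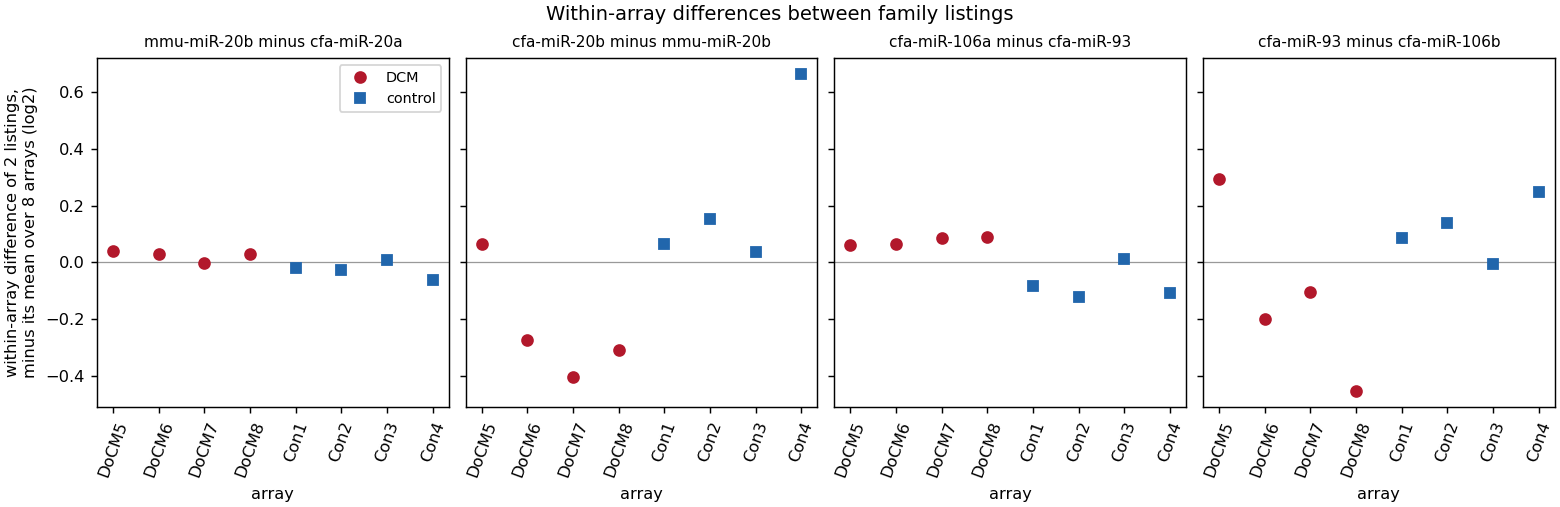
Difference between 2 listings on the same array, minus its mean over the 8 arrays, in log2 (y axis), by array (x axis) for 4 pairs of the family. Circles are DCM and squares are control arrays. The difference of mmu-miR-20b and cfa-miR-20a stays within 0.1 of its mean, and that of cfa-miR-106a and cfa-miR-93 is higher on all 4 DCM than on all 4 control arrays.

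Compared by cluster, the canine members of the miR-17 cluster lay on average higher in DCM relative to those of the miR-106b cluster. The mean deviation of cfa-miR-17 and cfa-miR-20a minus that of cfa-miR-93 and cfa-miR-106b was 0.19, 0.07, 0.14 and 0.40 on DoCM5 to DoCM8, and 0.05, −0.48, −0.10 and −0.28 on Con1 to Con4. The groups did not overlap, although the lowest DCM array, DoCM6 at 0.073, and the highest control, Con1 at 0.051, were close. The difference between groups was 0.34 without DoCM8, 0.41 with all arrays and 0.41 without DoCM5, and 0.22 without DoCM8 when only cfa-miR-20a stood for the miR-17 cluster. On Con2, the lowest array here, cfa-miR-17 was below background. Under the other settings without DoCM8 the value was 0.20 to 0.48. Of the single pairs behind it, cfa-miR-20a and cfa-miR-93 separated the groups in all 3 comparisons, but cfa-miR-20a and cfa-miR-106b in none. Against the miR-106a cluster, the miR-17 cluster differed by 0.38 without DoCM8 and by 0.49 with all arrays, where the groups overlapped, and by 0.59 without DoCM5, where they did not. When cfa-miR-17 and cfa-miR-20b were left out, it was 0.14 without DoCM8 and 0.22 without DoCM5, again without overlap only in the latter. The miR-106a cluster differed from the miR-106b cluster by −0.04 without DoCM8, by −0.09 with all arrays and by −0.18 without DoCM5, where alone the groups did not overlap. Without cfa-miR-20b it was 0.09, 0.03 and −0.03, and the groups overlapped in all 3. The bright mmu-miR-20b, with a difference of 0.51 without DoCM8, was not part of the values of the miR-106a cluster. These cluster values are descriptions without a test. How often such averages separate the groups over all listings was not computed. For single pairs of the well-detected listings it was 4.61% without DoCM8, 3.15% with all arrays and 8.1% without DoCM5.

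Outside the family, the listings closest to each canine member were looked up among the 431 other detected listings, again by the SD of the within-array difference over 8 arrays. For cfa-miR-17 they were cfa-miR-144 (SD 0.213), an erythroid miRNA, and cfa-miR-219 (0.232). Both SDs include Con2, where cfa-miR-17 was below background. For cfa-miR-20a they were mmu-let-7i (0.132) and cfa-miR-148b (0.140), and for cfa-miR-106a cfa-miR-1271 (0.084) and cfa-miR-148b (0.091). The cluster mate cfa-miR-25 was closest to cfa-miR-93 (0.103), followed by cfa-let-7g (0.110), and it was also closest to cfa-miR-20b (0.172), followed by cfa-miR-1842 (0.178). For cfa-miR-106b they were cfa-miR-660 (0.107) and cfa-miR-15a (0.116). After quantile normalization the rank of these listings changed, with cfa-miR-25 in rank 14 for cfa-miR-93 and cfa-miR-660 in rank 21 for cfa-miR-106b, whereas each kept a rank of 6 or better after scaling to the 75th percentile.

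For cfa-miR-144 itself, mmu-miR-144 was at 9.14 to 9.96 in DCM and at 7.92 to 8.86 in controls, a difference of 0.81 without DoCM8 (SE 0.34, unadjusted limma p of 0.0348, adjusted p = 0.9996), and cfa-miR-144 was at 7.78 to 8.65 in DCM and 6.70 to 7.78 in controls (0.60, unadjusted limma p of 0.131). Without DoCM8, where 2.51% of all listings passed both limits, the same held for 1 of 4 of the erythrocyte list, 1 of 7 of the leukocyte list (mmu-miR-142-3p), 1 of 4 detected of the heart and muscle list (mmu-miR-208a-5p, lower in DCM) and none of the 5 platelet and 3 liver listings. With all 8 arrays, where 3.88% of all listings passed, 2 of 4 of the erythrocyte list did, the second being cfa-miR-144. The listing mmu-miR-208a-5p did not pass with all 8 arrays or without DoCM5.

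Single probes of a listing differed slightly in the size of the difference between groups. Without DoCM8, the probes of cfa-miR-20a gave 0.50 and 0.42, those of mmu-miR-20b 0.51 and 0.50, and those of cfa-miR-106b 0.29 and 0.26. For cfa-miR-93 they gave 0.10 and 0.25, and for cfa-miR-106a 0.19, 0.33 and 0.34. All probes of a listing thus had the same direction without DoCM8. Without DoCM5, the probes of cfa-miR-106a gave −0.15, −0.0091 and 0.02, while both probes of cfa-miR-93 were negative with −0.27 and −0.10.

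The members are made from the same primary transcripts as miRNAs of other families, the cluster mates. Of 13 listings of the mates miR-18a, miR-18b, miR-19a, miR-19b, miR-25, miR-92a and miR-363, 10 were detected. None of them passed both limits without DoCM8 (2.51% of all listings), with 8 arrays (3.88%) or without DoCM5 (5.25%). Without DoCM8, 7 of the 10 were higher in DCM (50.7% of all listings), with a median of 0.28 and a range of −0.26 to 0.46. Without DoCM5, 5 of the 10 were higher (50.2% of all) and the median was −0.0003. Of the miR-17 cluster, mmu-miR-18a differed most without DoCM8, at 0.46 (SE 0.41, adjusted p = 0.9996). With 8 arrays its difference was 0.41 and without DoCM5 0.12, and cfa-miR-19a differed more in both, by 0.43 and 0.24. On single arrays, mmu-miR-18a was at 7.84, 6.58, 6.60 and 6.79 on DoCM5 to DoCM8, and at 6.61, 5.95, 6.88 and 6.73 on Con1 to Con4, with DoCM5 above and Con2 below all other arrays as in the family. Of the miR-106a cluster, the dim mmu-miR-363-3p differed most without DoCM8 (0.33, SE 0.36), and the only mate of the miR-106b cluster, cfa-miR-25, differed by 0.07 (SE 0.36), both with an adjusted p = 0.9996. The sign of cfa-miR-25 turned with 8 arrays (−0.01) and without DoCM5 (−0.25), while mmu-miR-363-3p was at 0.32 and 0.34.

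Not all mates followed the family on Con2. The listings of miR-92a, a mate with another seed, were not lowest on Con2: cfa-miR-92a was at 10.23 on Con2 and at 9.65 to 10.06 on DoCM6 to DoCM8, and mmu-miR-92a at 11.52 on Con2 and at 11.05 to 11.31 on DoCM6 to DoCM8. The difference between groups was −0.26 (SE 0.37) for cfa-miR-92a and −0.19 (SE 0.36) for mmu-miR-92a without DoCM8. Without DoCM5 it was −0.53 (SE 0.24, adjusted p = 0.718) and −0.45 (SE 0.22, adjusted p = 0.741), with unadjusted limma p of 0.0508 and 0.0693. Of the star names of members and mates, 4 of 14 were detected. In the miR-106b cluster, mmu-miR-106b* differed most without DoCM8 (0.25, SE 0.50), with 10 features kept and a signal well above background on 3 of 8 arrays. Without DoCM5 its sign turned (−0.47), and mmu-miR-93* differed more (−0.58, SE 0.24, adjusted p = 0.658). Among the 4, mmu-miR-18a* passed both limits without DoCM5 (−0.72, SE 0.24, unadjusted limma p of 0.0157, adjusted p = 0.573), where 5.25% of all listings did, but not without DoCM8 (−0.24, SE 0.45).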

How the data were processed

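Serum RNA of 8 dogs was measured on 8 one-colour arrays. The intensity values per feature were extracted and background-subtracted by the authors, with Agilent Feature Extraction 10.7.3.1 per the submitters' processing notes, and deposited without normalization between arrays. Groups and array numbers were taken from the labels. Replicates are separate dogs.

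A feature entered the analysis when 2 or more arrays of either group had it well above background (13423 of 48960), and listings with such a feature counted as detected. Control features and features with an outlier flag were left out. On a single array, a listing counted as well above background from a share of 50% of these features upwards. Mean signals of the listings were calibrated by an own implementation of the vsn model (quantile 0.9, 5 slices, 7 iterations) over 8 arrays. Tests used limma 3.58.1 in R 4.3.3 over all 438 listings, with Benjamini-Hochberg adjustment; the smallest p of the exact permutation test over arrays is 0.0286. The vsn and limma steps were tested on simulated data. The number of arrays limits the precision.

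All members were named with values, with the 2 closest listings of each canine member, the most changed mate per cluster without DoCM8 and the miR-451, miR-144, miR-142-3p, miR-223, miR-126 and miR-23a listings of the marker lists (erythrocyte, leukocyte, platelet and endothelium, heart and muscle, liver). miR-486 was not analysed here. Members and lists were chosen with earlier results of these data known. Other scalings, summaries and filters and left-out arrays were tried. Array design coordinates were not used, and gene order came from RefSeq's UU_Cfam_GSD_1.0. Figures were drawn with matplotlib 3.10.9.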

Additional observations from a re-analysis of the deposited data

Results flagged for a closer look

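Among 20 sets of 4 arrays of one group examined, 3 had an array far from the others, where chance gives about 1 in 20 if the sets are independent. In each it was DoCM5. These sets are not independent, as the 3 listings moved together over the same DCM arrays, and no conclusion is drawn from the count. For cfa-miR-20a, the gap of DoCM5 to the nearest DCM array took 0.839 of the range of the group, with DoCM5 at 10.82 and the others at 9.93 to 10.08. For cfa-miR-93 it took 0.924, with DoCM5 at 10.34 and the others at 9.24 to 9.32. For cfa-miR-106a it took 0.917, with DoCM5 at 9.36 and the others at 8.28 to 8.37.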

How the results depend on the processing

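No paired analysis was possible because no array number occurs in both groups, and the slide column was the only block that could be fitted. Under 20 other settings, 7 of them leaving out 1 array each, no member listing passed both limits. The differences of cfa-miR-17, cfa-miR-20a, cfa-miR-106b and mmu-miR-20b stayed above 0 (0.12 to 0.91, 0.18 to 0.83, 0.05 to 0.76 and 0.22 to 0.88), and so did the canine median (0.03 to 0.68). The sign turned for cfa-miR-93 without DoCM5 in place of DoCM8 (−0.16), after quantile normalization (−0.049), after normexp on the median signal with quantile normalization, changed together (−0.071) and with the median over features (−0.27), and for cfa-miR-20b (−0.30) and cfa-miR-106a (−0.0052) without DoCM5 in place of DoCM8. Leaving out 1 of the 7 arrays gave −0.18 to 0.38 for cfa-miR-93, −0.35 to 0.35 for cfa-miR-20b and −0.026 to 0.52 for cfa-miR-106a. Each of these was negative without DoCM5, and cfa-miR-20b also without Con2 (−0.15). With the median over features, the −0.27 of cfa-miR-93 lay outside the values of its single probes (0.10 and 0.25). So did the 0.76 of cfa-miR-106b (0.29 and 0.26). The probes of these listings differ in brightness, so that the median over features is not a reliable summary for them. The count of all listings past both limits was 11, against 17 with 8 arrays, 23 without DoCM5 in place of DoCM8, 2 after normexp on the median signal with quantile normalization, 41 without a filter on dim features, 7 with at least 50% of features kept, and 9 to 32 leaving out 1 array (28 without DoCM5 and 32 without DoCM6, each also without DoCM8). Of these 11, 6 were higher and 5 lower in DCM, against 3 and 10 after scaling to the 75th percentile of the listings detected on all arrays, 4 and 6 to that of all listings, 4 and 8 after quantile normalization, 8 and 15 without DoCM5 in place of DoCM8, 16 and 12 without both DoCM5 and DoCM8, and 5 and 27 without both DoCM6 and DoCM8. Scaling to the 75th percentile moved the median of all listings to −0.19 or 0.11. With the median over features, 1 cluster mate, cfa-miR-19b, passed both limits, lower in DCM. The miR-17 cluster minus the miR-106b cluster was 0.20 to 0.48 over all settings. The miR-106a cluster minus the miR-106b cluster was 0.15 after quantile normalization. The miR-17 cluster minus the miR-106a cluster was 0.073 after normexp on the median signal with quantile normalization. The offset of 50 added there shrinks differences of the dim cfa-miR-17 and cfa-miR-20b. The lowest values of cfa-miR-17 (0.12) and of the miR-17 cluster minus the miR-106b cluster (0.20) came from it too. With the members that kept over 50% of features, the miR-17 cluster minus the miR-106a cluster was 0.14. This last setting and the alternatives for pairs of listings were chosen after seeing the data. The causes were not tested. The dim signal of cfa-miR-17 and cfa-miR-20b and the number of arrays limit these values.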
